A study of Homo sapiens with 6 samples.

Results

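Glycolysis and hypoxia genes were taken as 39 named genes of the glycolytic pathway and of the cell's response to low oxygen. Of these, 35 had an array probe set annotated to no other gene, out of 18418 genes analysed, and where a gene had several such probe sets the brightest on average was used. The data are 6 arrays, 1 per sample of A2780, an ovarian cancer line of human origin kept in RPMI1640 with 10% fetal bovine serum. Lentivirus delivered the short hairpin RNAs (shRNAs), small RNAs that bring down a transcript of matching sequence. The groups were BMI1 knockdown (BMI1 shRNA1 and BMI1 shRNA2, 1 array each) with its own control (BMI1 Ctrl, 1 array), and FAL-1 knockdown (FAL-1 shRNA1 and FAL-1 shRNA2, 1 array each) with its own control (FAL-1 Ctrl, 1 array). The BMI1 protein belongs to the gene-silencing Polycomb group, and FAL-1 is a long non-coding RNA. All groups, controls included, were virus-infected A2780 cells taken 96 hours after infection. The sources used here do not say what the control hairpin targets, or whether infected cells were selected or cloned.

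Glycolysis splits glucose into pyruvate in the cytosol, and lactate dehydrogenase then turns pyruvate into lactate unless it enters mitochondria. When oxygen is low, the prolyl hydroxylases that mark HIF proteins for destruction slow down, and HIF-1 and HIF-2 accumulate and raise transcription of glucose transporters, glycolytic enzymes, angiogenic factors and pH regulators. Many tumour lines also run glycolysis at a high rate in the presence of oxygen. The control of HIF-1 acts largely on the protein, which these arrays do not measure.

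Array values are log2 probe set summaries, so a difference of 1 is a doubling, and levels are compared for one gene across arrays but not between genes. The median over all probe sets was 6.94 to 7.09 on each array. The probe set that reads BMI1, and also its readthrough transcript COMMD3-BMI1, stood at 26.8% of the BMI1 control with BMI1 hairpin 1 and at 64.0% with BMI1 hairpin 2. FAL-1 had no probe set under its own symbol here, so its knockdown was not checked. Among markers of epithelial and ovarian cells, EPCAM, CDH1, PAX8, WT1, MUC16, FOLR1 and ESR1 read 5.80 to 7.05 on every array. These values were near or under the array medians. SOX17 read 7.17 to 7.55, KRT19 6.21 to 8.57, KRT18 8.45 to 9.58 and KRT8 9.04 to 11.07. Of the mesenchymal markers, VIM read 12.62 to 12.82, CDH2 10.36 to 11.13 and ZEB1 9.15 to 9.95, while FN1 read only 5.77 to 6.08. The blood and endothelial markers PTPRC, CD3E, CD14, PECAM1, VWF and CDH5 read 6.65 or less, and HBB 6.07 to 7.71, highest with FAL-1 hairpin 2. The stromal markers COL1A1, COL3A1, DCN and LUM read 8.14 to 11.33 and the macrophage marker CD68 7.51 to 9.23. The part of these markers in the results was not tested. In such bulk RNA, fewer cells of one kind and less RNA per cell cannot be told apart. The 2 hairpins of a target are the only replicates, separate cultures are not described, and both hairpins are set against the same single control array, so p-values measure only the spread between these samples, which may be technical.

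With BMI1 knockdown, most of the glycolytic genes read lower than in the BMI1 control. Of the 20 glycolytic members measured, 15 were lower with both BMI1 hairpins and none was higher with both, and their median log2 change was -0.32 (-0.31 with hairpin 1 and -0.33 with hairpin 2). The 15 hypoxia members had a median of -0.10, with 7 lower and 4 higher with both hairpins. Over all 35 members, 22 were lower with both BMI1 hairpins where 30.7% of all genes were, and 4 were higher where 32.9% of all genes were. The members' median was -0.22, beside 0.01 over all genes.

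With both BMI1 hairpins 6 members read lower than the control by 1.5-fold or more: SLC2A1, HK2, PFKP, PFKFB4, ALDOC and PDK1. That is 6 of 35, where 0.901% of all genes were lower by this much with both hairpins. None of the 35 was higher by 1.5-fold with both, where 0.538% of all genes were. In limma's test of BMI1 knockdown none of 18418 genes passed (0%, adjusted p = 0.9998 for every member), while 477 had an unadjusted p under 0.05. Among the members, 8 were lower at that unadjusted threshold (1.56% of all genes) and 1 was higher (1.03%). The fit had 2 residual degrees of freedom, and the smallest p that exact permutation of these 3 arrays allows is 0.333.

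With FAL-1 knockdown the median of the glycolytic genes lay nearer to 0, a difference from BMI1 that was tested only gene by gene. Their median log2 change was -0.12, made of -0.06 with hairpin 1 and -0.18 with hairpin 2, and 13 of 20 were lower with both hairpins. Of all 35 members, 20 were lower with both FAL-1 hairpins, where 27.7% of all genes were, and 9 were higher, where 37.2% were. CA12 alone passed 1.5-fold lower with both hairpins (0.635% of all genes did) and no member 1.5-fold higher (0.576%). None of the 18418 genes passed limma's test (0%, adjusted p = 0.9991 for every member), and 563 had an unadjusted p under 0.05. By that unadjusted threshold, 2 members were lower (1.5% of all genes) and 2 were higher (1.55%).

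**Figure D1:**
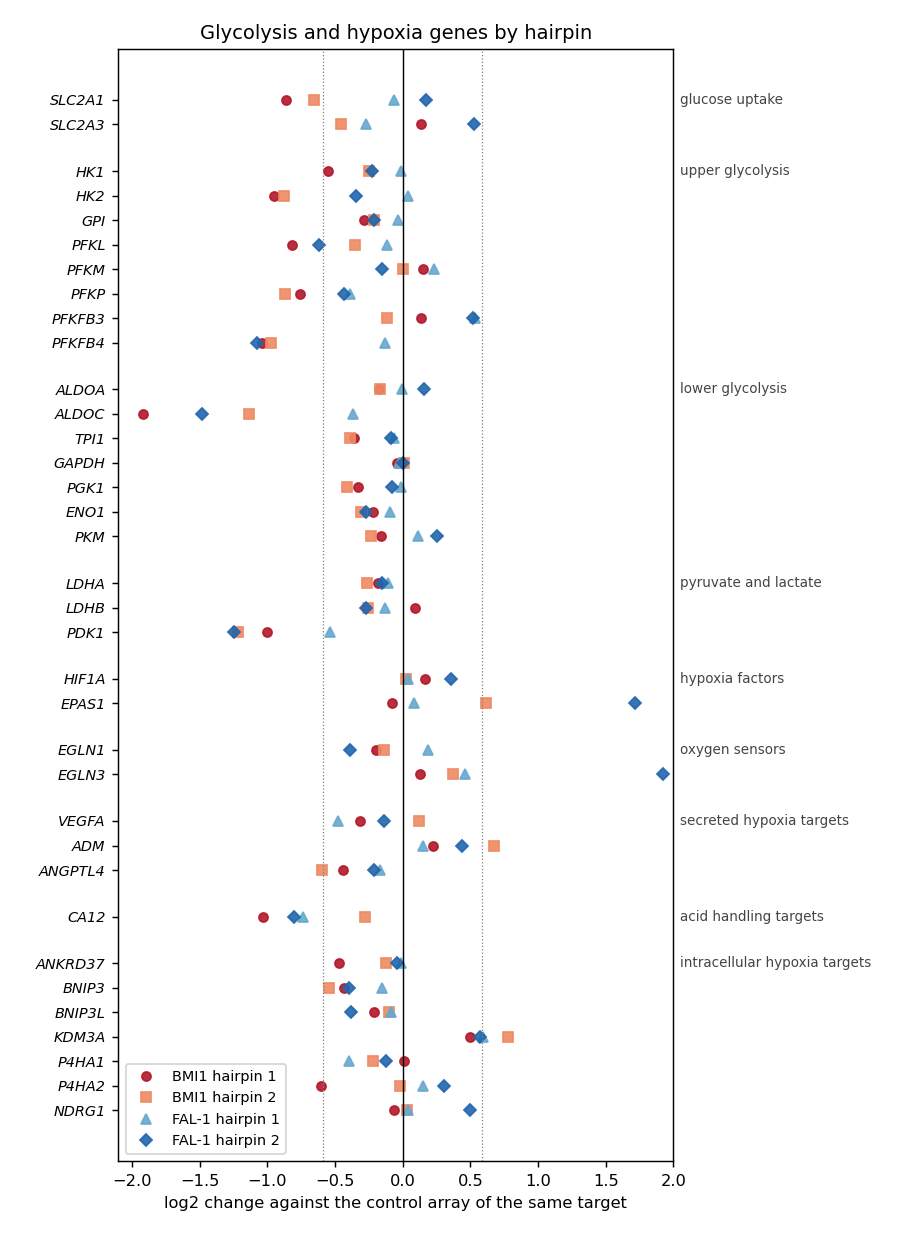
Each point is the log2 change of 1 hairpin array against the control array of the same target, for the 35 measured members ordered by role, with dotted lines at 1.5-fold. The BMI1 points lie left of 0 for most genes from SLC2A1 to PDK1, GAPDH stays close to 0 for all 4 hairpins, and EPAS1 and EGLN3 have 1 point far to the right, from FAL-1 hairpin 2.

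HIF proteins bind DNA at short motifs with the core ACGTG or GCGTG. Promoters are therefore shown for 4 of the 6 members past 1.5-fold with both BMI1 hairpins. Those of PFKFB4 and PFKP, the others, are given by counts only. RefSeq promoter windows (GRCh38.p14) were found for 31 of the 35 members, and the 250 bases before each annotated start were searched on both strands for these 2 motifs, of which ACGTG also lies inside CACGTG, the E-box that MYC and other factors can bind. Below are 4 windows, each written 5′ to 3′ along the gene's strand with every match in capitals. For HK2 and PDK1, which have 2 annotated windows each, the one with more matches is given.
ALDOC (chr17:28576896-28577145, minus strand): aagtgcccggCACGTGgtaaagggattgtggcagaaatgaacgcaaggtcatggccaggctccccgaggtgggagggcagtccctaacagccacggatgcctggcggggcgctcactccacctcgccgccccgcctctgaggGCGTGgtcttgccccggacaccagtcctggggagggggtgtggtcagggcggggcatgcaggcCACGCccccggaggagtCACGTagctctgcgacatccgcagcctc
HK2 (chr2:74834920-74835169, plus strand): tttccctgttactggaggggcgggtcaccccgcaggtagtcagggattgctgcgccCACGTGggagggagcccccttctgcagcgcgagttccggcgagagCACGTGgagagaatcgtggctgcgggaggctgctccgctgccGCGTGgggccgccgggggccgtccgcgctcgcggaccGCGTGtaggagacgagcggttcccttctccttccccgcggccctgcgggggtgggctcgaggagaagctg
PDK1 (chr2:172555840-172556089, plus strand): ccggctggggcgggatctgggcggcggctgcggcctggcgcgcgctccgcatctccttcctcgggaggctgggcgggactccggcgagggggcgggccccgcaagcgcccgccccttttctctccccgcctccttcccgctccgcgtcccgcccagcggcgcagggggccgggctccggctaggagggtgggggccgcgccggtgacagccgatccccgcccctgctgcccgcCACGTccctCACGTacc
SLC2A1 (chr1:42958869-42959118, minus strand): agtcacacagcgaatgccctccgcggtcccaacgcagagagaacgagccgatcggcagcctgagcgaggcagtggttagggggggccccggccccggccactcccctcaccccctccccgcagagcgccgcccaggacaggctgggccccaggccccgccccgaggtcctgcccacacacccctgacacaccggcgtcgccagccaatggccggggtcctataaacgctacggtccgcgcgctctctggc
The ALDOC window held 3 matches of ACGTG, counted on both strands, and 2 of GCGTG, and the HK2 window 4 and 2. Each CACGTG holds ACGTG on both strands and so counts as 2 matches. The 4 matches of ACGTG in HK2 thus came from 2 CACGTG, and ALDOC had 1 CACGTG. In PDK1 both matches of ACGTG lay in the last 17 bases before the start. The SLC2A1 window held neither motif, and sequence beyond these 250 bases was not searched. PFKFB4 and KDM3A held at most 1 match of GCGTG in a window and none of ACGTG, and PFKP, with 4 windows, at most 3 of GCGTG and 1 of ACGTG. Over all members, 20 of 55 windows (36.36%) held ACGTG and 19 (34.55%) held GCGTG, while among the 20111 windows of all genes analysed 20.26% and 38.55% did. Counted by gene, 54.84% of the 31 members had a window with ACGTG and 54.84% one with GCGTG. The shares were 25.72% and 46.38% of the 14240 genes analysed that had a window. A gene was counted if any of its windows matched, which favours genes with more windows. The 31 members had 55 windows, and the 14240 genes had 20111. The members were named for glycolysis and the hypoxia response, so these shares describe the list as chosen and not its changes on these arrays. A match in these letters is a description of the window and not a binding site.

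Glucose enters the cell through the GLUT transporters. SLC2A1, which encodes GLUT1, the main transporter of dividing cells, read 10.17 and 10.37 with the BMI1 hairpins, against 11.02 in their control. Its readings were 10.69 and 10.93 with FAL-1 knockdown, against 10.76 in the FAL-1 control. Both BMI1 arrays were the lowest of the 6, and the FAL-1 hairpins lay on either side of their control. The mean change with BMI1 knockdown was -0.76 ± 0.14 (SD, n = 2 hairpins), which is 0.59 of the control level, and -0.49 against the FAL-1 control. The FAL-1 change exceeded the BMI1 change by 0.81 ± 0.25 (SE), and limma's test of that difference gave an unadjusted p of 0.029 and an adjusted p = 0.9999, so it did not pass. SLC2A3, which encodes the high-affinity transporter GLUT3, had no common direction: its changes were 0.14 and -0.45 with the BMI1 hairpins and -0.27 and 0.53 with the FAL-1 hairpins.

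Hexokinase traps glucose in the cell as glucose 6-phosphate. HK2, the inducible hexokinase of many tumours and a HIF target, read 8.47 and 8.54 with the BMI1 hairpins, against 9.42 in their control, and 9.63 and 9.24 with the FAL-1 hairpins, against 9.59 in theirs. The BMI1 knockdown arrays stood apart from all other arrays, with a mean change of -0.91 ± 0.05 and -1.08 against the FAL-1 control. The FAL-1 change of HK2 exceeded the BMI1 change by 0.76 ± 0.29 (SE, limma adjusted p = 0.9999, not passed). HK1, the constitutive form, read 7.62 and 7.93 with the BMI1 hairpins, against 8.17 in their control, and 8.24 and 8.03 with the FAL-1 hairpins, against 8.26 in theirs. The change of HK2 minus that of HK1 was -0.39 and -0.63 with the BMI1 hairpins. GPI, the isomerase of the next step, was lower by small amounts with all 4 hairpins, from -0.29 to -0.03.

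Phosphofructokinase 1 commits sugar to glycolysis, and its 3 genes differed in their changes. PFKP, the platelet-type subunit, read 8.77 and 8.65 with the BMI1 hairpins, against 9.52 in their control, and 8.80 and 8.76 with the FAL-1 hairpins, against 9.19 in theirs. All 4 knockdown arrays lay below both controls. The mean change was -0.81 ± 0.08 with BMI1 knockdown and -0.41 ± 0.03 with FAL-1 knockdown, and against the other target's control these became -0.48 and -0.74. PFKL, the liver-type subunit, read 8.42 and 8.88 with the BMI1 hairpins, against 9.24 in their control, and 9.28 and 8.78 with the FAL-1 hairpins, against 9.39 in theirs. PFKM, the muscle-type subunit, read 10.40 and 10.25 with the BMI1 hairpins, against 10.25 in their control, and 10.46 and 10.08 with the FAL-1 hairpins, against 10.23 in theirs. PFKL leaned low on each hairpin array, with changes from -0.82 to -0.12, while the PFKM values straddled the controls.

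The PFKFB enzymes make and remove fructose 2,6-bisphosphate, the strongest activator of phosphofructokinase 1. PFKFB4 read 6.82 and 6.88 with the BMI1 hairpins, against 7.86 in their control, and 7.94 and 6.99 with the FAL-1 hairpins, against 8.07 in theirs. The 2 BMI1 hairpins and FAL-1 hairpin 2 were about 1 log2 unit under their controls, while FAL-1 hairpin 1 was not. The mean with BMI1 knockdown was -1.01 ± 0.04, or 0.50 of the control level. PFKFB3, the family member with the highest kinase activity, read 8.79 and 8.54 with the BMI1 hairpins, against 8.66 in their control, and 8.88 and 8.87 with the FAL-1 hairpins, against 8.35 in theirs. It was higher with both FAL-1 hairpins, at a mean of 0.53 ± 0.01, but the FAL-1 control was the lowest of the 6 arrays, and against the BMI1 control the mean was 0.22. In every hairpin array the change of PFKFB4 was below that of PFKFB3, with differences of -0.66 and -1.596 for the FAL-1 hairpins and of -1.17 and -0.86 for the BMI1 hairpins.

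**Figure D2:**
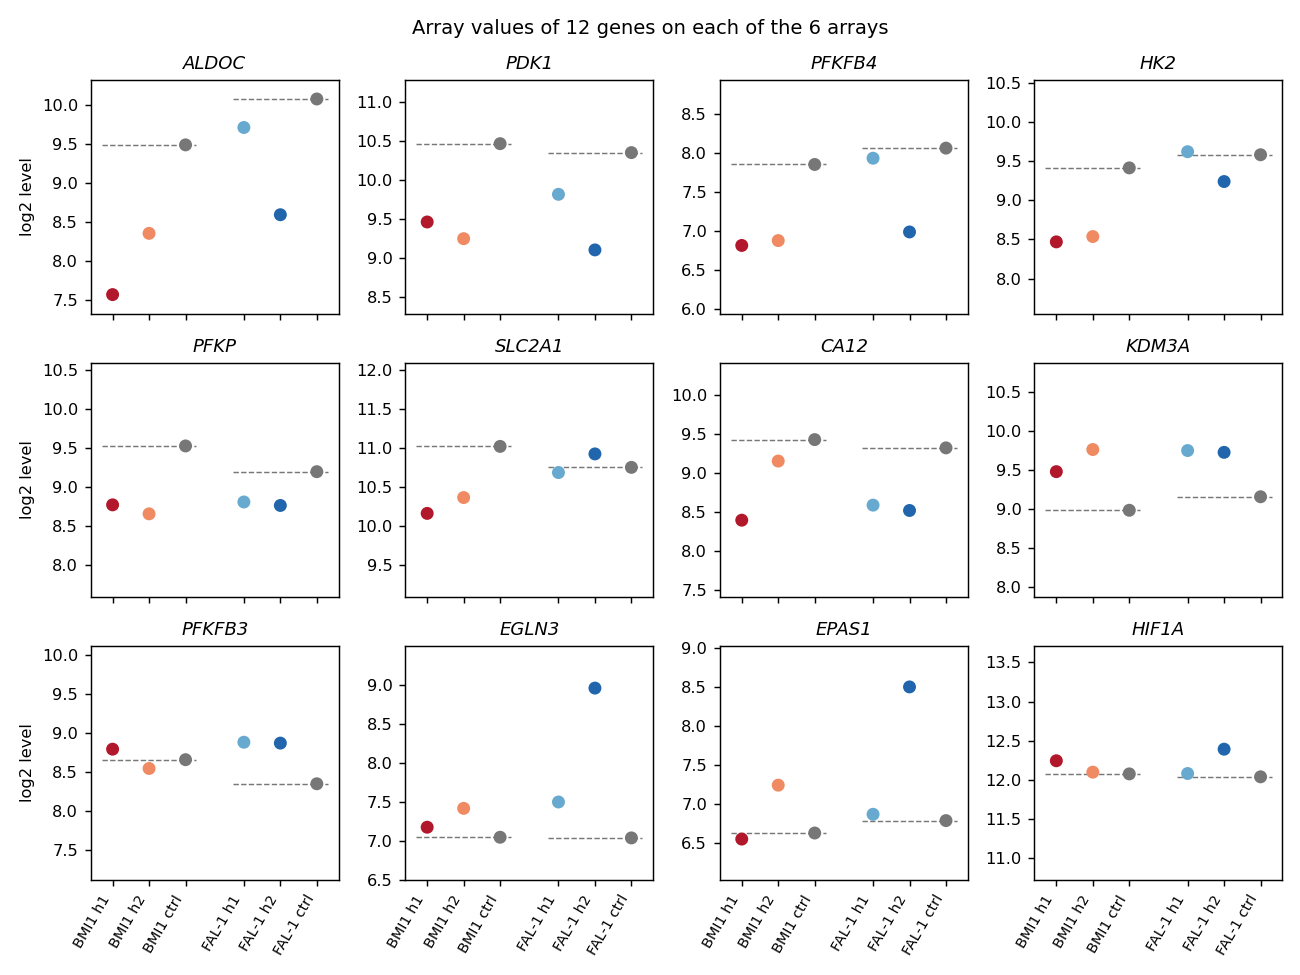
Each panel gives 1 gene's log2 level on the 6 arrays, with hairpin 1 (h1) and hairpin 2 (h2) of each target left of their control (ctrl, grey, with a dashed line at its level) and an axis 3 log2 units tall. PFKP, PDK1 and CA12 lie below both controls on all 4 knockdown arrays and KDM3A above them, while EGLN3 and EPAS1 are highest with FAL-1 hairpin 2.

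Further down the pathway the aldolases differed from each other. ALDOC, the brain-type aldolase and a HIF target, read 7.57 and 8.36 with the BMI1 hairpins, against 9.49 in their control, and 9.71 and 8.60 with the FAL-1 hairpins, against 10.08 in theirs. It had the widest range of all members over the 6 arrays, 2.51 log2 units, and the lowest changes with both BMI1 hairpin 1 (-1.92) and FAL-1 hairpin 2 (-1.48). Its mean change was -1.53 ± 0.55 with BMI1 knockdown and -0.92 ± 0.79 with FAL-1 knockdown. The controls themselves differed by 0.59, with the FAL-1 control higher, and ALDOC was the only member 1.5-fold apart between controls (1.65% of all genes were that much higher in the FAL-1 control). Against the other target's control the means were -2.11 for BMI1 and -0.34 for FAL-1. ALDOA, the main muscle and tumour aldolase, was lower by 0.18 and 0.17 with the BMI1 hairpins and read -0.01 and 0.16 with the FAL-1 hairpins.

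The remaining lower steps showed small differences with little spread. TPI1, triose phosphate isomerase, read 12.02 and 11.99 with the BMI1 hairpins, against 12.38 in their control, and 12.34 and 12.32 with the FAL-1 hairpins, against 12.41 in theirs. ENO1, the ubiquitous enolase, read 12.84 and 12.75 with the BMI1 hairpins, against 13.06 in their control, and 12.998 and 12.82 with the FAL-1 hairpins, against 13.09 in theirs. For both genes all 4 knockdown arrays lay below both controls, but on the second TPI1 probe set FAL-1 hairpin 2 was not below the FAL-1 control. That probe set read 9.75 and 9.79 with the BMI1 hairpins, against 10.14 in their control. It read 10.09 and 10.10 with the FAL-1 hairpins, against 10.10 in theirs. PGK1, which makes the first ATP of the pathway, was at -0.33 and -0.41 with the BMI1 hairpins and at -0.01 and -0.08 with the FAL-1 hairpins. GAPDH, often used as a reference gene, read 13.48 and 13.53 with the BMI1 hairpins, against 13.52 in their control, and 13.55 and 13.58 with the FAL-1 hairpins, against 13.58 in theirs. Its whole range over the 6 arrays was 0.11, the smallest of the members. PGAM1, phosphoglycerate mutase, was read only by 5 probe sets that are also annotated to its copy PGAM4. These shared probe sets were lower by 0.25 to 0.37 with the BMI1 hairpins and lay between -0.02 and 0.10 with the FAL-1 hairpins, and they enter no count.

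PKM, the pyruvate kinase of dividing cells, differed in direction between the targets. Its changes were 0.12 and 0.25 with the FAL-1 hairpins and -0.16 and -0.23 with the BMI1 hairpins, and the controls were level. LDHA, the lactate dehydrogenase subunit that favours lactate production, read 13.24 and 13.17 with the BMI1 hairpins, against 13.43 in their control, and 13.23 and 13.19 with the FAL-1 hairpins, against 13.34 in theirs. LDHB, the subunit of oxidative tissues, read 12.14 and 11.79 with the BMI1 hairpins, against 12.05 in their control, and 12.19 and 12.05 with the FAL-1 hairpins, against 12.32 in theirs. LDHA was lower on all 4 knockdown arrays than on either control, by at most 0.26, whereas the LDHB values overlapped the controls.

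PDK1 was well below its control with 3 of the 4 hairpins and below it with the other as well. It encodes a kinase that switches off pyruvate dehydrogenase and so keeps pyruvate out of the mitochondrial citrate cycle, and it is a HIF-1 target. It read 9.46 and 9.25 with the BMI1 hairpins, against 10.47 in their control, and 9.82 and 9.10 with the FAL-1 hairpins, against 10.35 in theirs. No knockdown array reached either control. The mean change was -1.11 ± 0.15 (0.46 of the control level) with BMI1 knockdown and -0.89 ± 0.50 (0.54 of it) with FAL-1 knockdown. With the controls exchanged PDK1 stood at -0.996 for BMI1 and -1.01 for FAL-1, and its average over both targets was -1.001 ± 0.23 (SE, limma adjusted p = 0.9071, not passed). The lactate transporter genes SLC16A1 and SLC16A3 were not analysed here.

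Neither HIF1A nor EPAS1, the members that encode transcription factors of the hypoxia response, was lower with both hairpins of a target. HIF1A, the oxygen-regulated subunit of HIF-1, read 12.24 and 12.09 with the BMI1 hairpins, against 12.07 in their control, and 12.08 and 12.39 with the FAL-1 hairpins, against 12.04 in theirs. All 4 knockdown arrays were above both controls, although BMI1 hairpin 2 was only 0.02 and FAL-1 hairpin 1 only 0.04 above its own. Against the BMI1 control FAL-1 hairpin 1 was only 0.005 higher. EPAS1, which encodes HIF-2 alpha, read 6.56 and 7.25 with the BMI1 hairpins, against 6.63 in their control, and 6.87 and 8.51 with the FAL-1 hairpins, against 6.79 in theirs. FAL-1 hairpin 2 was 1.71 above its control, the other hairpins between -0.08 and 0.61. Its FAL-1 mean of 0.90 ± 1.15 thus had a spread larger than itself.

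The prolyl hydroxylases act as oxygen sensors by marking HIF proteins for destruction. EGLN1, the main one in most cells, read 9.35 and 9.41 with the BMI1 hairpins, against 9.55 in their control, and 9.85 and 9.28 with the FAL-1 hairpins, against 9.66 in theirs. EGLN3, itself a HIF target, read 7.18 and 7.42 with the BMI1 hairpins, against 7.05 in their control, and 7.499 and 8.96 with the FAL-1 hairpins, against 7.04 in theirs. EGLN3 was above both controls on all 4 knockdown arrays. EGLN1 was below both controls with both BMI1 hairpins, while the FAL-1 hairpins lay on either side of both controls. The change of EGLN3 ranged from 0.13 with BMI1 hairpin 1 to 1.92 with FAL-1 hairpin 2, and the FAL-1 mean was 1.19 ± 1.03. On the FAL-1 hairpin 2 array EPAS1 and EGLN3 were high while PDK1, ALDOC, PFKFB4 and CA12 were low.

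Among secreted products of the hypoxia response, VEGFA, the angiogenic growth factor, read 9.35 and 9.79 with the BMI1 hairpins, against 9.66 in their control, and 9.52 and 9.85 with the FAL-1 hairpins, against 9.99 in theirs. ADM, which encodes the vasodilator adrenomedullin, read 7.90 and 8.35 with the BMI1 hairpins, against 7.68 in their control, and 7.97 and 8.26 with the FAL-1 hairpins, against 7.83 in theirs. VEGFA overlapped the controls, while ADM was above both controls on every knockdown array. ANGPTL4, an inhibitor of lipoprotein lipase, was at -0.44 and -0.60 with the BMI1 hairpins and at -0.17 and -0.21 with the FAL-1 hairpins.

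Of the carbonic anhydrases, which manage acid at the cell surface, CA12 was measured and CA9 was not analysed here. CA12 read 8.40 and 9.16 with the BMI1 hairpins, against 9.43 in their control, and 8.59 and 8.52 with the FAL-1 hairpins, against 9.33 in theirs. It was lower than both controls on all 4 arrays. The FAL-1 mean was -0.77 ± 0.05, or 0.59 of the control level, and the BMI1 hairpins were unequal, at -1.03 and -0.27.

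Intracellular hypoxia targets split into lower and higher genes. BNIP3, a mitophagy receptor of the outer mitochondrial membrane, read 11.21 and 11.10 with the BMI1 hairpins, against 11.65 in their control, and 11.49 and 11.25 with the FAL-1 hairpins, against 11.64 in theirs. KDM3A, a HIF-induced histone H3 lysine 9 demethylase, read 9.48 and 9.76 with the BMI1 hairpins, against 8.98 in their control, and 9.75 and 9.73 with the FAL-1 hairpins, against 9.16 in theirs. BNIP3 was below both controls on all 4 knockdown arrays and KDM3A above both on all 4. KDM3A averaged 0.64 ± 0.20 with BMI1 knockdown and 0.58 ± 0.02 with FAL-1 knockdown, and 0.46 and 0.75 with the controls exchanged. Its average over both targets was 0.61 ± 0.12 (SE, limma adjusted p = 0.9071, not passed).

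The other intracellular targets mostly stood closer to their controls. BNIP3L, a second mitophagy receptor, was at -0.38 to -0.08 over the 4 hairpins, and ANKRD37, a small HIF-induced protein, at -0.47 to -0.01. P4HA1 and P4HA2 encode catalytic subunits of collagen prolyl 4-hydroxylase. P4HA1 was 0.46 lower in the FAL-1 control than in the BMI1 control, so its mean with FAL-1 knockdown was -0.26 against its own control and -0.72 against the other. P4HA2 was at -0.60 and -0.02 with the BMI1 hairpins and at 0.15 and 0.30 with the FAL-1 hairpins. NDRG1, a stress-induced gene, was at -0.06 and 0.03 with the BMI1 hairpins and at 0.04 and 0.50 with the FAL-1 hairpins.

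Taking the 4 knockdown arrays against both controls, 7 members lay below both controls on every knockdown array: PFKP, TPI1, ENO1, LDHA, PDK1, CA12 and BNIP3. Of all genes, 8.04% did so. The 4 members above both controls on every knockdown array were HIF1A, EGLN3, ADM and KDM3A, where 9.02% of all genes were. Of these 11 members, PFKP, PDK1, CA12 and KDM3A had means of 0.4 or more in size against either control for both targets. PFKP passed narrowly, at -0.41 for FAL-1 against its own control. The cut-off of 0.4 serves description only, and the share of all genes past it was not counted.

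The controls were then exchanged. With BMI1 knockdown the mean change of 33 of 35 members had the same sign against either control, where 71.2% of all genes did, P4HA1 and NDRG1 being the exceptions. Set against the FAL-1 control, the BMI1 median was -0.34, beside -0.01 over all genes, with 24 members lower with both hairpins (37.7% of all genes) and 7 higher (31.8%). At an unadjusted limma p under 0.05, 11 were lower (3.88% of all genes) and 1 higher (1.79%), and none passed after adjustment (lowest adjusted p = 0.8195).

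With FAL-1 knockdown 26 of 35 members had the same sign against either control, where 74.5% of all genes did, and the median against the BMI1 control was -0.01, beside 0.04 over all genes. The 9 that turned were SLC2A1, HK2, ALDOA, GAPDH, LDHB, EGLN1, VEGFA, ANKRD37 and P4HA2. In that setting 9 members were lower with both hairpins (28.1% of all genes) and 10 higher (41.8%), so fewer were higher than the share of all genes. At an unadjusted limma p under 0.05, PFKP, PDK1 and P4HA1 were lower (2.95% of all genes) and KDM3A higher (5.25%), with a lowest adjusted p = 0.5135. Between the controls themselves no member passed an unadjusted p of 0.05 in either direction (1.4% of all genes were higher in the FAL-1 control and 0.793% lower).

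Averaged over both targets, 9 members had an unadjusted limma p under 0.05 and were lower: SLC2A1, HK2, PFKP, PFKFB4, ALDOC, PDK1, ANGPTL4, CA12 and BNIP3 (2.87% of all genes). KDM3A alone was higher at that threshold (2.35%). In the test of the FAL-1 change minus the BMI1 change, SLC2A1 was the 1 member above 0 at an unadjusted p under 0.05 (0.337% of all genes) and none was below (0.467%). None of these passed after adjustment (lowest adjusted p = 0.9071 for the average and 0.9999 for the difference).

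**Figure D3:**
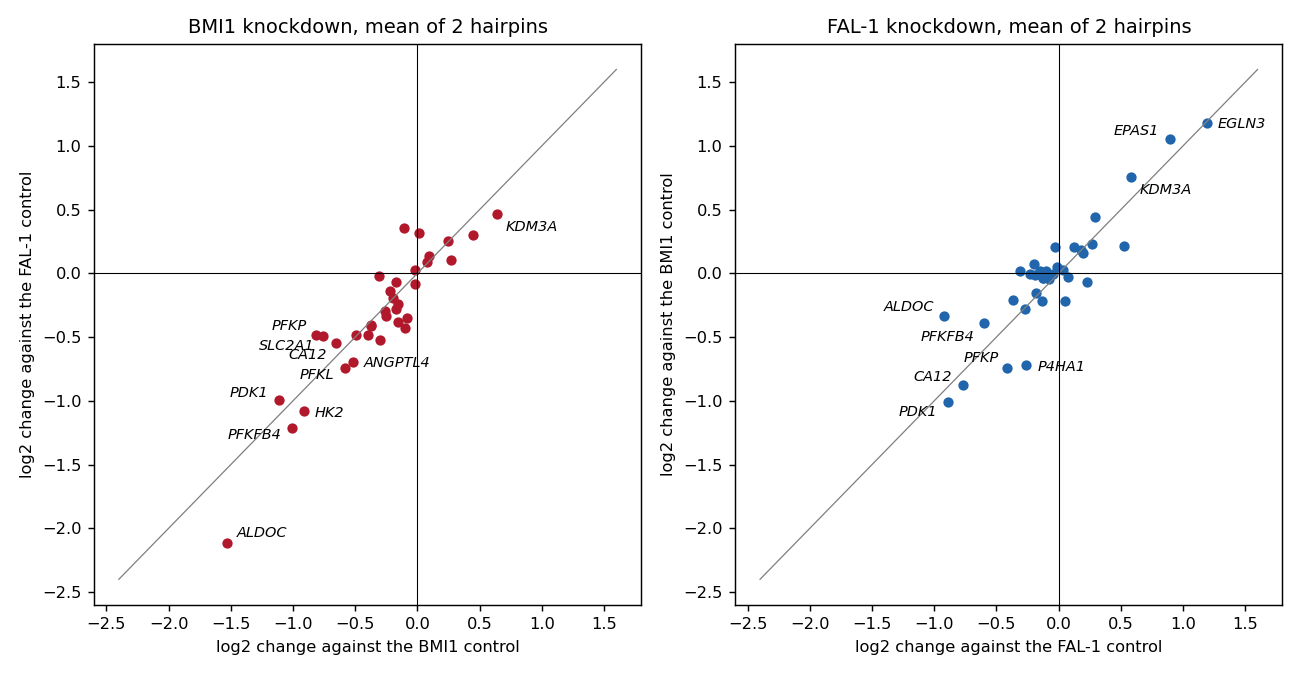
Each point is 1 member's mean log2 change over the 2 hairpins of a target, against the target's own control (horizontal axis) and the other target's control (vertical axis), with the diagonal of equal values. For BMI1, 33 of 35 members have the same sign on both axes, P4HA1 and NDRG1 being the exceptions, and for FAL-1 26 of 35 do.

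Single hairpins differed in how many members stood apart from the control. BMI1 hairpin 1, with less BMI1 left than hairpin 2, was farther from the control for 19 of 35 members, where 44.8% of all genes were. At 1.5-fold, 9 members were lower with BMI1 hairpin 1 (3.26% of all genes) and none higher (1.75%), and 7 were lower with hairpin 2 (3.85%) and 3 higher (1.97%), the last being EPAS1, ADM and KDM3A. FAL-1 hairpin 2 was farther from the control than hairpin 1 for 29 of 35 members and for 67.9% of all genes, and 11.2% of all genes were 1.5-fold apart either way with hairpin 2 and 2.51% with hairpin 1. With FAL-1 hairpin 1, CA12 was lower (1.56% of all genes) and KDM3A higher (0.956%) at 1.5-fold, while with hairpin 2 PFKL, PFKFB4, ALDOC, PDK1 and CA12 were lower (7.05%) and EPAS1 and EGLN3 higher (4.15%).

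Other gene programmes also differed on the same arrays. The median log2 change of 14 replication genes was -0.52 and -0.72 with the BMI1 hairpins, -0.01 with FAL-1 hairpin 1 and -1.17 with FAL-1 hairpin 2. KRT19 read 8.57 with FAL-1 hairpin 2, where EPAS1 and EGLN3 were highest, and 6.21 to 6.73 on the other 5 arrays. Their part in the result was not tested.

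The wider pathway was read from other gene lists, and no gene of them passed limma's test in either comparison. Of 25 further glycolytic isozymes and regulators, 11 were lower with both BMI1 hairpins (30.7% of all genes) and 6 higher (32.9%), with a median of -0.07. With both FAL-1 hairpins 10 were lower (27.7% of all genes) and 9 higher (37.2%), with a median of -0.03. ENO2, the neuronal enolase and a HIF target, read 6.78 and 6.70 with the BMI1 hairpins, against 7.79 in their control, and 6.84 and 6.71 with the FAL-1 hairpins, against 7.61 in theirs, so no knockdown array came near a control. TIGAR, a p53 target that lowers fructose 2,6-bisphosphate, was at 0.14 and 0.59 with the FAL-1 hairpins and at -0.21 and -0.38 with the BMI1 hairpins. PFKFB2, the heart-type relative of PFKFB3, was higher by 0.33 and 1.07 with the BMI1 hairpins, but its mean was -0.07 against the FAL-1 control.

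The machinery that handles HIF proteins had medians near 0. Of 18 genes, 8 were lower with both BMI1 hairpins (30.7% of all genes) and 5 higher (32.9%), with a median of -0.04. With both FAL-1 hairpins 6 were lower (27.7% of all genes) and 8 higher (37.2%), with a median of 0.02. LIMD1, a scaffold for HIF degradation, read 8.90 and 8.87 with the BMI1 hairpins, against 9.27 in their control, and 8.76 and 8.69 with the FAL-1 hairpins, against 9.18 in theirs. OS9, a lectin of the endoplasmic reticulum, was higher by 0.44 and 0.36 with the BMI1 hairpins and by 0.41 and 0.56 with the FAL-1 hairpins, but its BMI1 mean was -0.02 against the FAL-1 control.

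Of 34 further HIF targets, 16 were lower with both BMI1 hairpins (30.7% of all genes) and 7 higher (32.9%), with a median of -0.11. With both FAL-1 hairpins 12 were lower (27.7% of all genes) and 12 higher (37.2%), with a median of -0.01. ZNF395 was lower with all 4 hairpins, from -0.58 to -0.38, while HMOX1, heme oxygenase 1, was higher by 2.36 and 2.51 with the BMI1 hairpins and by 0.71 and 1.22 with the FAL-1 hairpins. DDIT4 and STC2, which respond to amino acid stress as well as to hypoxia, were lower with the FAL-1 hairpins, at -1.24 and -1.71 for DDIT4 and at -1.94 and -1.98 for STC2. Against the BMI1 control these FAL-1 means were -0.19 and -0.38. The list of 16 ATF4 targets, genes of the amino acid response, had a mean level of 9.70 on the FAL-1 control and between 8.43 and 8.82 on the other 5 arrays. Its part in these values was not tested.

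Genes for the entry of pyruvate into mitochondria had a median of -0.12 with BMI1 knockdown and of -0.06 with FAL-1 knockdown over 13 genes. PDK3, another inhibitory kinase of pyruvate dehydrogenase, read 8.29 and 8.13 with the BMI1 hairpins, against 9.29 in their control, and 8.71 and 7.34 with the FAL-1 hairpins, against 9.10 in theirs. All 4 knockdown arrays of PDK3 were below both controls, as for PDK1, and FAL-1 hairpin 2 was again the lowest. PDHA1, the catalytic subunit that these kinases switch off, was at -0.52 and -0.66 with the BMI1 hairpins and at -0.14 and -0.46 with the FAL-1 hairpins, but its FAL-1 mean was 0.06 against the BMI1 control.

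Side branches of glycolysis were read as well. The 8 pentose phosphate genes had a median of -0.07 with BMI1 knockdown and of -0.17 with FAL-1 knockdown. RPIA, ribose 5-phosphate isomerase, was at -0.94 and -1.27 with the FAL-1 hairpins, and at -0.06 and -0.37 with the BMI1 hairpins. The 17 genes of gluconeogenesis and glycogen had a median of -0.06 in both comparisons. Among them PYGM, muscle glycogen phosphorylase, was at -2.26 and -2.15 with the BMI1 hairpins and at -1.38 and -1.84 with the FAL-1 hairpins, and PYGL, the liver form, at -0.71 and -1.82 with the FAL-1 hairpins.

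**Figure D4:**
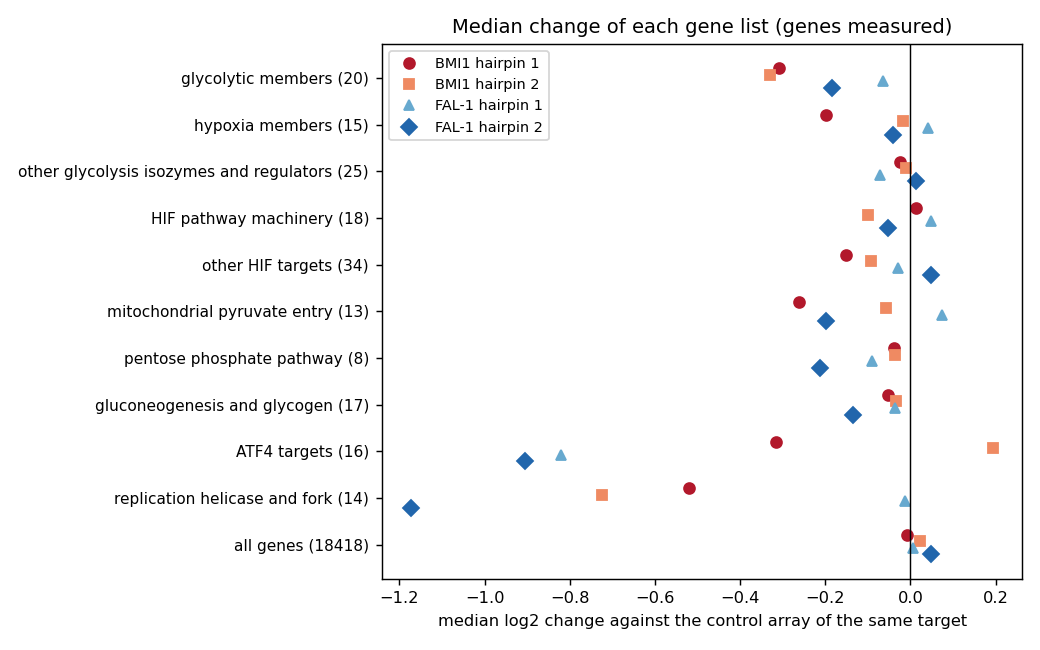
Each point is the median log2 change of a gene list for 1 hairpin against its own control, with the number of genes measured in brackets. The glycolytic members lie at -0.31 and -0.33 with the BMI1 hairpins, the ATF4 targets at -0.82 and -0.91 with the FAL-1 hairpins, and all genes between -0.01 and 0.05.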

How the data were processed

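RNA from 6 A2780 samples was hybridised to Affymetrix arrays with a single dye, per the labels' protocols. The authors deposited log2 probe set values, made with RMA per the submitters' processing notes. The sources used here give no RMA version and do not say if the 6 arrays were normalized as 1 set. Of 33252 probe sets, 19460 had 1 gene symbol, 1754 several and 12038 none listed.

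One limma model (3.58.1, R 4.3.3; lmFit, eBayes, two-sided) held the 4 groups, with Benjamini-Hochberg adjustment over 18418 genes at 0.05. The 2 hairpins of a target were treated as samples of 1 group, and a control with 1 array took its spread from the hairpin pairs. Counts by hairpin (on one side of the control, or 1.5-fold) carry no test. Precision is limited by the small number of arrays.

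The members, the gene lists and the rule for naming genes were chosen with earlier results of these data known. Values on all arrays were given for members past 1.5-fold with both hairpins, 1.5-fold apart between controls, or on one side of both controls with all 4 hairpins, and for 14 fixed genes. From each other list, genes were named from the 4 with the smallest p in either comparison, and ENO2. Per-array values of PFKFB3 and EPAS1 were added after their values were seen. Alternatives were the other or both controls, quantile normalization, cyclic loess, filters on dim genes, means of probe sets, other variance models, a hairpin block, fewer arrays and other thresholds. Counting the shared PGAM1 and PGAM4 probe set was added after the data were seen.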

Additional observations from a re-analysis of the deposited data

Results flagged for a closer look

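Of the 35 members, PKM and P4HA2 changed in opposite directions with the 2 targets. Both hairpins of 1 target were above their control and both of the other were below theirs. The share of all genes with this pattern was not counted, so it is not known to be unusual. Of all genes, 30.7% were lower and 32.9% higher with both BMI1 hairpins. With both FAL-1 hairpins 27.7% were lower and 37.2% higher. PKM was at 0.12 and 0.25 with the FAL-1 hairpins and at -0.16 and -0.23 with the BMI1 hairpins, and the FAL-1 change exceeded the BMI1 change by 0.38 ± 0.20 (SE). P4HA2 was at 0.15 and 0.30 with the FAL-1 hairpins and at -0.60 and -0.02 with the BMI1 hairpins, a difference of 0.54 ± 0.39 (SE). Neither difference passed limma's test over all genes (adjusted p = 0.9999). With the controls exchanged its means were -0.07 for FAL-1 and -0.02 for BMI1. For PKM the controls were level, so both means stayed the same, at 0.18 for FAL-1 and -0.20 for BMI1.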

How the results depend on the processing

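At an adjusted p of 0.05, 0 genes passed in limma in each of the 7 comparisons under every alternative run for it. A threshold of 0.10 was applied only to the chosen settings and also gave 0, but with an intensity trend the lowest adjusted p for BMI1 knockdown against the FAL-1 control was 0.0565. The replicate block, with hairpin number as a term, also gave 0 calls in each. Hairpin numbers name different shRNAs, and the labels give no pairing of the samples. The correlation of same-numbered deviations was 0.275. With 1 pair of targets it cannot show whether same-numbered samples were handled together. The BMI1 median of the members, -0.22, was -0.1614 after quantile normalization, -0.2102 after cyclic loess, -0.2619 against both controls, -0.3381 against the FAL-1 control and -0.2349 with the shared PGAM1 and PGAM4 probe set counted. Leaving out a BMI1 hairpin gave -0.2341 (without hairpin 1) to -0.2189 (without hairpin 2). The counts at a fold threshold that follow take changes in either direction. The count of 6 members at 1.5-fold with BMI1 knockdown was 12 at a threshold midway between no change and 1.5-fold and 2 at 2-fold. KDM3A, among the 12, was higher. On a single hairpin the count was 9 with BMI1 hairpin 1 (5.01% of all genes) and 10 with hairpin 2 (5.82%), 3 of these 10 higher. Shares of all genes at 2-fold and at the midway threshold were not counted. The FAL-1 count of 1 was 2 after quantile normalization, 3 against both controls and 4 against the BMI1 control. It was 7 at the midway threshold and 0 at 2-fold. KDM3A was higher among the 4 and among the 7, and PFKFB3 and EGLN3 were higher among the 7. The FAL-1 count was 7 without FAL-1 hairpin 1 (11.2% of all genes) and 2 without FAL-1 hairpin 2 (2.51%). For the other FAL-1 settings the share of all genes was not counted. Single-hairpin counts need 1 array past the threshold and not 2, which makes them larger by construction. The FAL-1 median, -0.10, was -0.14 without FAL-1 hairpin 1, -0.0316 without FAL-1 hairpin 2, -0.0638 after quantile normalization and -0.0069 against the BMI1 control, where 19 members, not 29, lay on one side. The cause was not tested for the other shifts. With the controls exchanged the mean changes of 2 members turned sign for BMI1 and of 9 for FAL-1. With 1 control array per target, an error in a control shifts both hairpins alike.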
